A study of Mus musculus with 2 samples.

Results

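10 genes of glycolysis were followed through the cells of the mouse aorta: Gapdh, Pgk1, Ldha, Aldoa, Pkm, Tpi1, Pgam1, Gpi1, Hk2 and Pfkfb3. They were taken by symbol and make up 11 of the 31053 rows of the deposited counts, because Aldoa is listed under 2 identifiers. The second Aldoa row (ENSMUSG00000114515) held 0 UMIs in both libraries, so every Aldoa value comes from ENSMUSG00000030695. Gapdh, the best counted, lies at chr6:125161715-125166467 on the minus strand (GENCODE M21, GRCm38). All 10 genes were counted in both libraries, from 647 UMIs of Pfkfb3 in the HFD library to 13375 UMIs of Gapdh in the ND library.

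Cells of the dissociated aortic arch were profiled by droplet single-cell RNA sequencing in 1 library per diet, each made from a pool of 2 aortas. The mice were male Apoe-/- animals on the C57BL/6 background, aged 16 weeks, and both groups lacked Apoe, a ligand for the clearance of lipoprotein remnants. The control group (ND) ate chow, and the Western diet group (HFD) ate food high in fat, with cholesterol and sodium cholate added, from weaning on. Neither diet has a second library. Every comparison therefore describes this pair of libraries, without a test, and every interval is an exact 95% interval for counting error only.

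Glycolysis splits glucose into pyruvate in the cytoplasm. Hexokinase traps glucose as glucose 6-phosphate, phosphofructokinase commits it to the pathway, and the enzymes from aldolase to pyruvate kinase turn the products into pyruvate with a net gain of ATP, after which lactate dehydrogenase can return the NAD+ that the pathway needs. Endothelial cells are known to draw most of their ATP from glycolysis, and activated macrophages and brown fat also run it at a high rate.

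Of the members, Hk2 and Gpi1 act at the top of the pathway: Hk2 is the inducible hexokinase of muscle and fat, and Gpi1 turns glucose 6-phosphate into fructose 6-phosphate. Pfkfb3 makes fructose 2,6-bisphosphate, the activator of phosphofructokinase. Aldoa and Tpi1 split the hexose and interconvert its triose products, Gapdh and Pgk1 oxidise the triose and make the first ATP, Pgam1 and Pkm complete the way to pyruvate, and Ldha makes lactate.

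Several of these genes are textbook targets of hypoxia-inducible factor (HIF), whose binding site has the core letters ACGTG. RefSeq windows of 300 bases, from 250 bases before to 50 after a transcript start (GRCm38.p6), were found for 10 of 10 members. ACGTG on either strand (CACGT on the printed strand) stood in 10 of 15 member windows, belonging to 8 members, and in 19.6% of all 32851 windows. The palindrome CACGTG, also the letters of an E-box, counts once on each strand. Both matches printed for Pfkfb3 are 1 such palindrome, and overlapping windows of Aldoa share 1 match. The windows of Pgk1, Ldha, Hk2 and Pfkfb3 are printed below, 5′ to 3′ on the gene's strand with those letters in capitals. These members had at least 2 matches in their first window, the one with the lowest coordinate. Of all windows, 8.21% held at least 2. A second window of Pkm also held 2 matches. Gapdh, Pgam1 and Aldoa held at most 1 match in a window, and Tpi1 and Gpi1 none. A match is a description of the letters and not of binding.
Pgk1, chrX:106186850-106187149, plus strand: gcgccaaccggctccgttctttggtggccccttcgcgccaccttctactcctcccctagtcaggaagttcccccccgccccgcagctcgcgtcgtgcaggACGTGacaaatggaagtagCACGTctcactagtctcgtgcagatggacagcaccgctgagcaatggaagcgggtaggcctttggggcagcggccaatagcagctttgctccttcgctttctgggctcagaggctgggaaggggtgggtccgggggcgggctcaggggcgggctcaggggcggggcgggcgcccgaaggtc
Ldha, chr7:46845554-46845853, plus strand: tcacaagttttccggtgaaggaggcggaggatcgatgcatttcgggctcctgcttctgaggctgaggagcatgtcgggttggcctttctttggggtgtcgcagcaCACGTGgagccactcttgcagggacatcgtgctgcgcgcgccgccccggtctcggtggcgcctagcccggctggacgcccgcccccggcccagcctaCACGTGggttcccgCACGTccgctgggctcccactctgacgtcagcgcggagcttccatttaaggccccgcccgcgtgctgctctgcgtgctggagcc
Hk2, chr6:82774405-82774704, minus strand: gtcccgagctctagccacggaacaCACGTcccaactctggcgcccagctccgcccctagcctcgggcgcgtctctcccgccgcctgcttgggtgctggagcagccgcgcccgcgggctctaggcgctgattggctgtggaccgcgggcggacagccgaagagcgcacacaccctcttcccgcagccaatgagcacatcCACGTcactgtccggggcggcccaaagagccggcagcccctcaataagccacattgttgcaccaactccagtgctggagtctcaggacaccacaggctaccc
Pfkfb3, chr2:11502041-11502340, minus strand: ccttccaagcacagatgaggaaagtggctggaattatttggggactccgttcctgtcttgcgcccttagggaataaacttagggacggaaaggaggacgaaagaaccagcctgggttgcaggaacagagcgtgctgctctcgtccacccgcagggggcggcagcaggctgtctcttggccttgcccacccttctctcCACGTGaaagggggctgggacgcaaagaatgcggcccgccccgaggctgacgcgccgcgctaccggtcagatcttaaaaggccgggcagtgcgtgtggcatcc

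The files hold 10234 ND and 14225 HFD barcodes, of which 5416 and 2739 were kept for having 200 or more UMIs, 200 or more genes, and no more than 30% of UMIs from mitochondrial genes. The study's methods state the same cell numbers after limits on UMIs and mitochondrial RNA. They give the ND library more median reads and more detected transcripts per cell. Those measures are named otherwise than the UMIs and genes counted here, which were higher in HFD. Kept ND cells had a median of 3733 UMIs, 1478 genes and 16.8% mitochondrial UMIs, and kept HFD cells 5336 UMIs, 1847 genes and 21.9%. 1 kept barcode was shared by both libraries. A cell was assigned to a type (gated) when at least 3 of the markers of that type had a UMI and no other list reached 3, which left 819 ND and 530 HFD cells out as mixed. The gates took 2187 ND and 1106 HFD endothelial cells, 904 and 400 fibroblasts, and 327 and 472 macrophages, and no other gate held 50 cells in both libraries. The tissue label was aorta, yet only 27 ND and 9 HFD cells fell in the mural (smooth muscle and pericyte) gate, because 163 of 190 ND and 139 of 148 HFD cells with 3 mural markers were mixed, while 45 ND cells fell in an airway club cell gate.

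Each gate was treated as 1 pool, in which the UMIs of a gene were divided by all UMIs and scaled to 1000000 UMIs, the unit CPM. Levels were compared for 1 gene across gates and libraries, not between genes. Apoe still stood at 85.3 CPM in ND and 75.7 in HFD endothelial cells, 35.3 and 32.4 in macrophages, and 10.8 and 24.0 in fibroblasts. No source used here says whether the knockout removes the counted 3′ end. Over the 3 large gates, the members' summed level in ND was 1313 CPM in endothelial cells (1291 to 1336), 1330 in fibroblasts (1292 to 1369) and 1778 in macrophages (1713 to 1845). In HFD it was 1868 in endothelial cells (1835 to 1902), 1396 in fibroblasts (1342 to 1452) and 2621 in macrophages (2566 to 2677). Endothelial cells and fibroblasts overlapped in ND and did not in HFD, and macrophages were highest of the 3 in both libraries, by 1.35-fold over endothelial cells in ND and 1.40-fold in HFD.

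Among all ND gates with at least 20 cells, the adipocyte gate stood highest, with 5741 CPM (5479 to 6012) in 20 cells. Schwann-gated cells followed at 3037 (2719 to 3383) and neutrophil-gated cells at 2612 (2380 to 2861), with overlapping intervals. Dendritic, T and mural gates lay between 1904 and 2174, with each neighbour overlapping and the mural gate overlapping the macrophages, and the B, club, fibroblast and endothelial gates formed the lower end, between 1313 and 1474. In HFD the order was macrophage, T (2493, 2274 to 2727), dendritic (2010, 1851 to 2179), endothelial and fibroblast, and the first pair overlapped, as did the dendritic and endothelial gates. The 10 members were higher in adipocyte-gated than in endothelial-gated ND cells by 1.71-fold (Gpi1) and 2.54-fold (Gapdh) up to 8.05-fold (Aldoa) and, for Hk2, 165.8-fold. Their median log2 ratio was 2.08, beside -0.46 over all 9623 genes so compared. The medians of the tricarboxylic acid cycle list (2.88) and of the pentose phosphate, serine and glycerol list (3.27) were higher still, and that of the other glycolysis enzymes was -0.21. The 20 cells had Adipoq, a fat cell hormone, at 1610 and Ucp1 at 146 CPM, the latter being the uncoupling protein of brown fat.

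**Figure D1:**
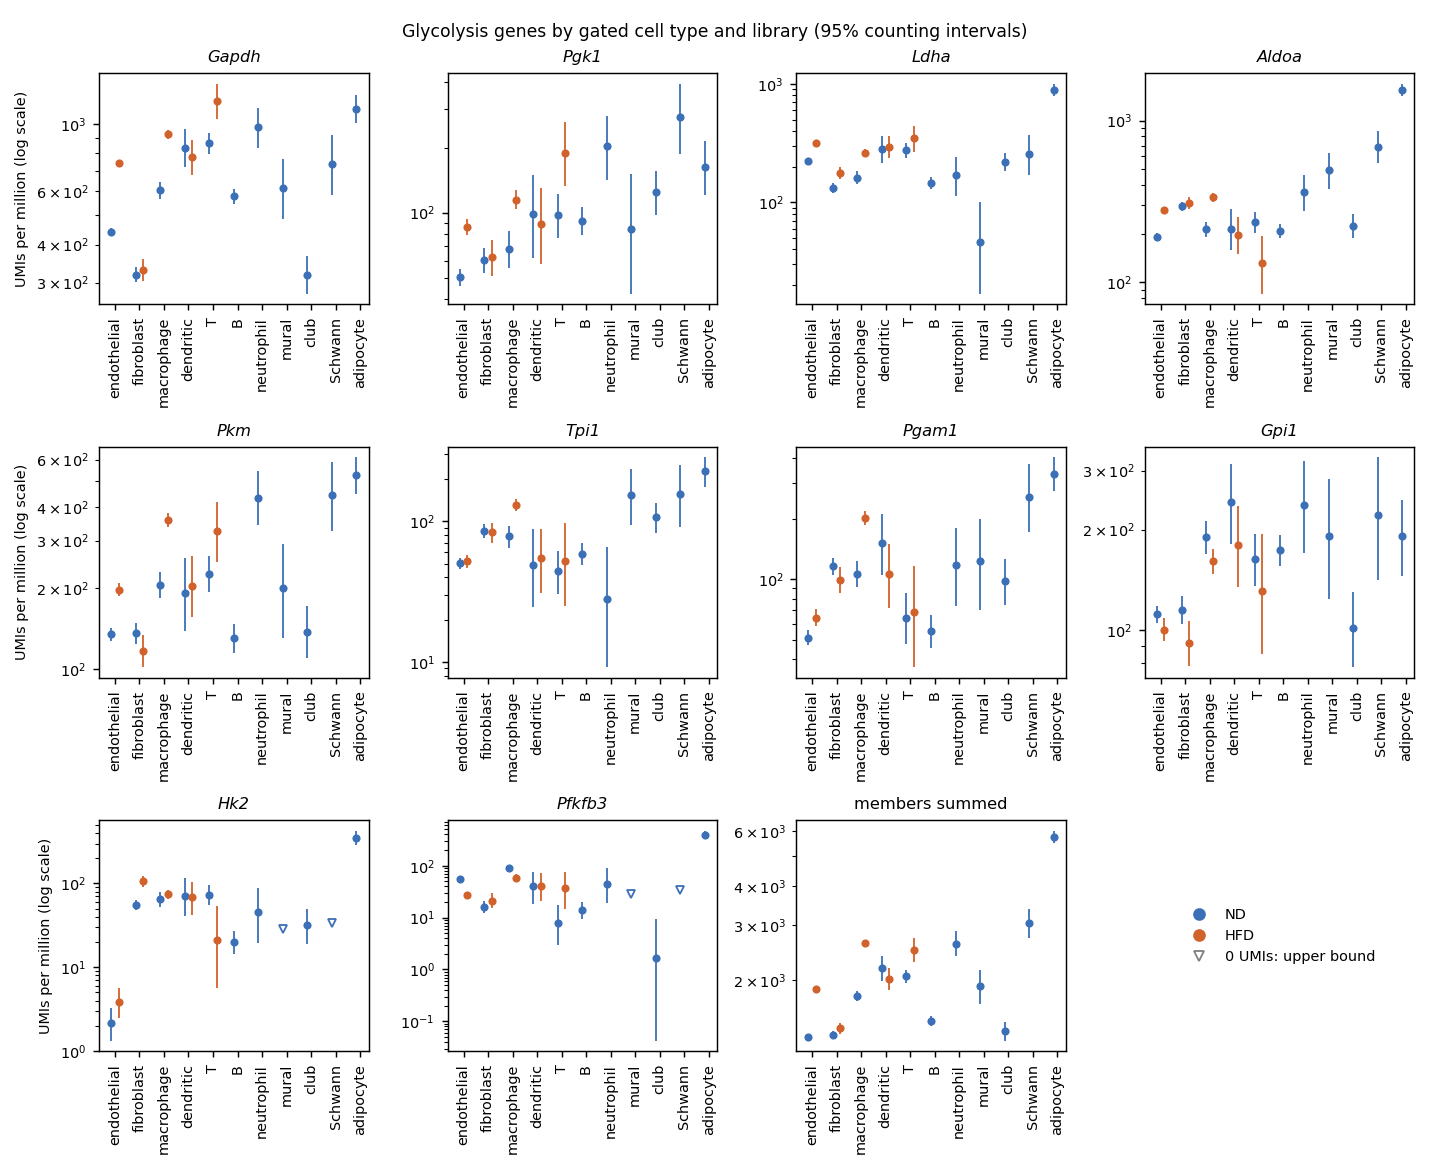
Level of each glycolysis gene and of their sum in each gate with at least 20 cells, in CPM on a log axis (each panel has its own range), ND in blue and HFD in orange, with 95% counting intervals. An open triangle is the upper bound for a gate with 0 UMIs. Hk2 is lowest in the endothelial gate among gates with a UMI (2.13 in ND and 3.86 in HFD), and the ND adipocyte gate is highest for the sum, at 5741.

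Of the members, Hk2 differed most between the 3 large gates. Hk2 stood at 2.13 CPM in ND endothelial cells (21 UMIs) and 3.86 in HFD endothelial cells (25 UMIs). In fibroblasts it stood at 55.1 in ND and 106 in HFD, in macrophages at 64.8 and 74.6, and in ND T cells at 73.5. The endothelial level was thus lower than the fibroblast level by 25.8-fold in ND (16.4 to 42.7) and 27.5-fold in HFD (18.1 to 43.6). ND adipocyte-gated cells held 353 CPM (291 to 425), above every other ND gate. A UMI of Hk2 was found in 0.732% of ND and 1.63% of HFD endothelial cells, against 14.3% and 18.5% of fibroblasts and 23.9% and 29.0% of macrophages, at median depths of 3394 and 5216, 3731 and 4346, and 4371 and 5774 UMIs. After each cell was thinned to 1000 UMIs the shares were 0.0918% and 0.271%, 3.92% and 5.75%, and 6.46% and 5.30%, so the order of endothelial cells against the others was the same at equal depth.

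Endothelial cells carried Hk1, the hexokinase of brain and most resting tissues, in place of Hk2. Of all Hk1, Hk2 and Hk3 UMIs, Hk1 made up 95.6% in ND (499 of 522, 93.5% to 97.2%) and 358 of 385 in HFD endothelial cells. In fibroblasts Hk2 made up 62.4% in ND and 80.5% in HFD. Macrophages divided their hexokinase UMIs between Hk2 (41.0% in ND, 41.8% in HFD) and Hk3, the myeloid hexokinase (39.0% and 48.9%), with Hk1 at 19.9% and 9.33%. In the ND adipocyte gate 111 of 111 hexokinase UMIs were Hk2. These shares are compared across gates, and because capture can differ between genes, they are not the ratio of the transcripts in a cell.

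**Figure D2:**
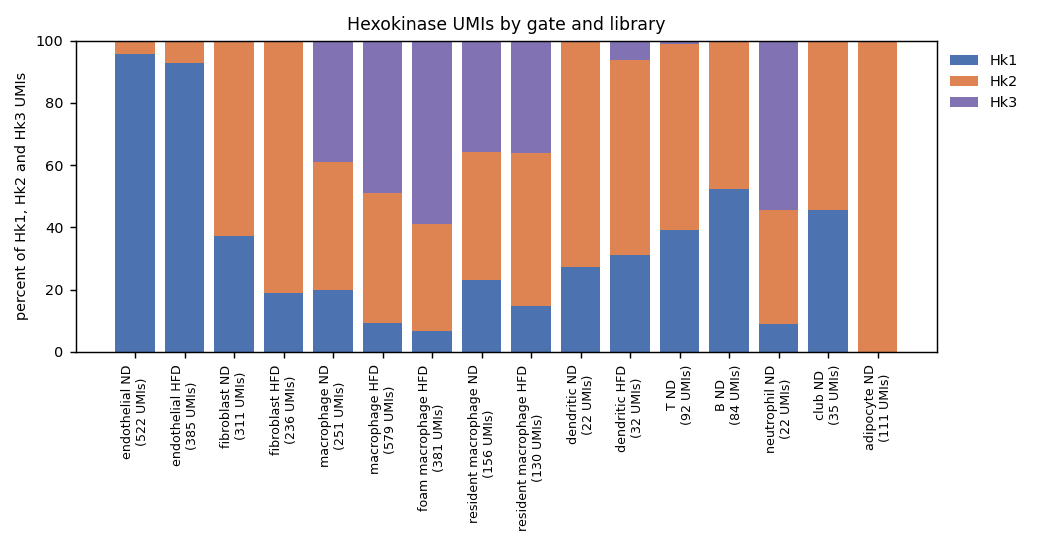
Share of hexokinase UMIs (percent, stacked) taken by Hk1, Hk2 and Hk3 in each gate and library with at least 20 such UMIs, whose number stands under each bar. Endothelial bars are almost wholly Hk1 (95.6% in ND), the adipocyte bar is wholly Hk2, and Hk3 takes 39.0% in ND and 48.9% in HFD macrophages and 54.5% in ND neutrophils.

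The activator enzyme Pfkfb3 had another order. It stood at 88.8 CPM in ND macrophages (74.7 to 105), 55.2 in ND endothelial cells (50.7 to 60.0) and 16.2 in ND fibroblasts (12.3 to 21.0), with none of these 3 intervals overlapping. B and T cells lay at 14.1 and 8.01, overlapping each other and the fibroblasts, and ND adipocyte-gated cells at 395 (328 to 471). Among the 4 PFKFB genes it took 89.5% of endothelial UMIs in ND and 85.3% in HFD, and 57.0% and 61.3% in fibroblasts.

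For the lower-pathway members the 3 large ND gates lay closer together than for Hk2 or Pfkfb3. Gpi1, at the top of the pathway, was also close, at 112 in ND endothelial cells, 115 in fibroblasts and 189 in macrophages. Over all ND gates shown, Ldha ran from 46.1 CPM (mural, 6 UMIs) to 891 (adipocyte). Ldha was lower in ND fibroblasts (132 CPM, 121 to 145) and macrophages (161, 142 to 182) than in ND endothelial cells (224, 215 to 234). Pgam1 ran the other way, at 51.1 in ND endothelial cells, 106 in macrophages and 116 in fibroblasts. Tpi1 stood at 50.4 in ND endothelial cells, 78.1 in macrophages and 85.7 in fibroblasts, and the latter gates overlapped for both genes. Aldoa was 1.54-fold higher in ND fibroblasts than in ND endothelial cells (294 against 192). Ldhb, which favours the return of lactate to pyruvate, was a minor partner of Ldha in endothelial cells (5.80% of the UMIs of both genes in ND, 3.22% in HFD) and macrophages, and took 39.2% in the ND club gate.

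The diet comparison asks how the Western diet library differs from the chow library within a gate. In endothelial cells 6 members from Aldoa to Ldha had intervals above 1, Tpi1 not among them. Gapdh stood at 442 CPM in ND and 741 in HFD, a ratio of 1.68 (1.61 to 1.75). Pgk1 stood at 50.2 and 86.2, a ratio of 1.72 (1.52 to 1.94). These were the 2 members past 1.5-fold, of 9 with at least 50 UMIs over both libraries, while 4.6% of all 10365 genes so counted were as much higher.

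Short of that fold lay Pkm (135 in ND and 197 in HFD, 1.47-fold), Aldoa (192 and 281, 1.46-fold) and Ldha (224 and 316, 1.41-fold), each with an interval above 1. Pgam1 was at 51.1 and 64.1 (1.25-fold, 1.10 to 1.43). Tpi1 was at 50.4 and 51.9 (1.03-fold, 0.893 to 1.18). Gpi1 was at 112 and 101 (0.901-fold, 0.816 to 0.993), and its log2 ratio of -0.15 became 0.01 after scaling by the median of ratios. Hk2, with 46 UMIs in all, is given above only as levels.

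Pfkfb3 lay on the other side. It stood at 55.2 CPM in ND endothelial cells and 26.9 in HFD (0.487-fold, 0.408 to 0.579), the 1 member at least 1.5-fold lower, where 17.3% of all genes were as much lower. The sum of all 10 was 1313 in ND and 1868 in HFD, a log2 ratio of 0.51 (0.47 to 0.54). The members' median log2 ratio was 0.49 over the 9 genes, beside -0.17 over all genes tested. That median of all genes moved to -0.04 without mitochondrial, haemoglobin and ribosomal genes and to -0.01 after scaling by the median of ratios, and under each of these Gapdh, Pgk1, Ldha, Aldoa and Pkm were past 1.5-fold, beside 6.97% and 7.65% of all genes. The share of higher genes among those past the fold was 21.0% as reported, 36.6% and 40.5% under those scalings.

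At equal depth the pattern in Gapdh was the same. A UMI of Gapdh was found in 74.8% of ND and 93.2% of HFD endothelial cells, and in 34.9% (32.9% to 37.0%) and 49.5% (46.5% to 52.4%) after thinning to 1000 UMIs. No gate lacks Gapdh, so free RNA cannot be read off from another cell type here. Haemoglobin RNA took 0.654% of ND and 4.10% of HFD endothelial UMIs, with 4 of 5 haemoglobin genes higher in HFD and Hbb-bh1 at 0 in both. The summed markers of adipocytes stood at 38.2 and 123 CPM, higher in HFD for 4 of 7 genes. 11 genes of the response to dissociation summed to 12662 and 10198 CPM. The part of each in the differences was not tested, and leaving out every cell with a haemoglobin UMI left 1244 ND and 70 HFD endothelial cells, in which the sum differed by 0.67 (0.56 to 0.78) on the log2 scale.

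Cells were also parted by their vascular bed. Of the endothelial cells, 1945 ND and 1015 HFD cells carried capillary markers (Gpihbp1, Cd36, Rbp7 and Aqp1) and 167 and 54 carried markers of the aortic lumen (Vwf, Vcam1, Cytl1 and Bmx). Capillary-gated cells had summed levels of 1303 in ND and 1906 in HFD, a log2 ratio of 0.55 (0.51 to 0.59), with Gapdh 1.69-fold, Pgk1 1.81-fold, and Aldoa and Pkm 1.56-fold higher in HFD. Luminal cells had 1333 and 1357, a log2 ratio of 0.03 (-0.12 to 0.17), with Gapdh at 339 and 376 (1.11-fold, 0.912 to 1.35) and Tpi1 at 87.3 and 45.2 (0.517-fold, 0.294 to 0.863). Pfkfb3 was at 55.1 and 23.3 in capillary cells (0.422-fold, 0.346 to 0.513) and at 65.7 and 52.7 in luminal cells (0.802-fold, 0.467 to 1.32). The intervals of the sum and of Gapdh do not overlap between both beds, and the difference between the beds was not tested over replicates. Haemoglobin RNA took 4.48% of HFD UMIs in capillary and 0.724% in luminal cells. The share of all genes past 1.5-fold was not counted in either bed.

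In macrophages most members were higher in HFD. Gapdh stood at 604 CPM in ND and 924 in HFD (1.53-fold, 1.42 to 1.65), Pkm at 205 and 358 (1.74-fold, 1.54 to 1.98), and Pgam1 at 106 and 202 (1.90-fold, 1.60 to 2.26). With Pgk1 (68.0 and 115), Ldha (161 and 262), Aldoa (212 and 334) and Tpi1 (78.1 and 131), 7 of 10 members were at least 1.5-fold higher, beside 9.19% of all 7052 genes tested. None was at least 1.5-fold lower, beside 17.3% of all genes, but Pfkfb3, at 88.8 and 59.2, was just outside at 0.667-fold (0.534 to 0.835). Gpi1 stood at 189 and 161, a log2 ratio of -0.24 that became 0.02 without cells with a haemoglobin UMI. Hk2 stood at 64.8 and 74.6 (1.15-fold, 0.910 to 1.46), with a log2 ratio of 0.20 that became -0.02 when each cell weighed the same. The sum was 1778 and 2621, a log2 ratio of 0.56 (0.50 to 0.62). The members' median was 0.68 and that of all genes -0.11, which became 0.05 under the median of ratios, where higher genes made up 56.0% of those past the fold in place of 34.7%. Haemoglobin RNA took 0.0660% of ND and 0.516% of HFD macrophage UMIs, adipocyte markers summed to 6.92 and 8.02 CPM with Adipoq and Lep at 0, neutrophil markers to 242 and 88.8, B cell markers to 21.4 and 64.1, and dissociation genes to 14304 and 8258 CPM. In the 200 ND and 25 HFD macrophages without a haemoglobin UMI, 2 of 10 members were past the fold and the sum's log2 ratio was 0.47 (0.29 to 0.65), and with gates of 2 markers 4 of 10 were. Endothelial cells had 4 members past the fold under each of these settings. The share of all genes past the fold was not counted under them.

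Fibroblasts had a single member past the fold. Hk2 stood at 55.1 CPM in ND and 106 in HFD (1.93-fold, 1.57 to 2.37), where 4.62% of 8555 genes were as much higher. None was as much lower, beside 15.4% of all genes. Ldha was at 132 and 177 (1.34-fold, 1.16 to 1.55), and Gapdh at 319 and 330 (1.04-fold, 0.936 to 1.15). The sum was 1330 and 1396, 1.05-fold or 0.07 on the log2 scale (upper bound 0.14, lower bound just under 0), while the median of all genes was -0.17, and under the other scalings the sum's ratio was 0.26 and 0.21. Haemoglobin RNA took 0.0885% of ND and 0.710% of HFD fibroblast UMIs, adipocyte markers summed to 6.81 and 19.6 CPM with Plin1 and Lep at 0, mural markers to 143 and 47.0 CPM, and dissociation genes to 8820 and 6790 CPM. The median mitochondrial share was 14.0% in ND and 22.4% in HFD fibroblasts, and the part of these in the Hk2 difference was not tested. Higher genes made up 23.0% of those past the fold as reported and 46.2% without mitochondrial, haemoglobin and ribosomal genes.

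**Figure D3:**
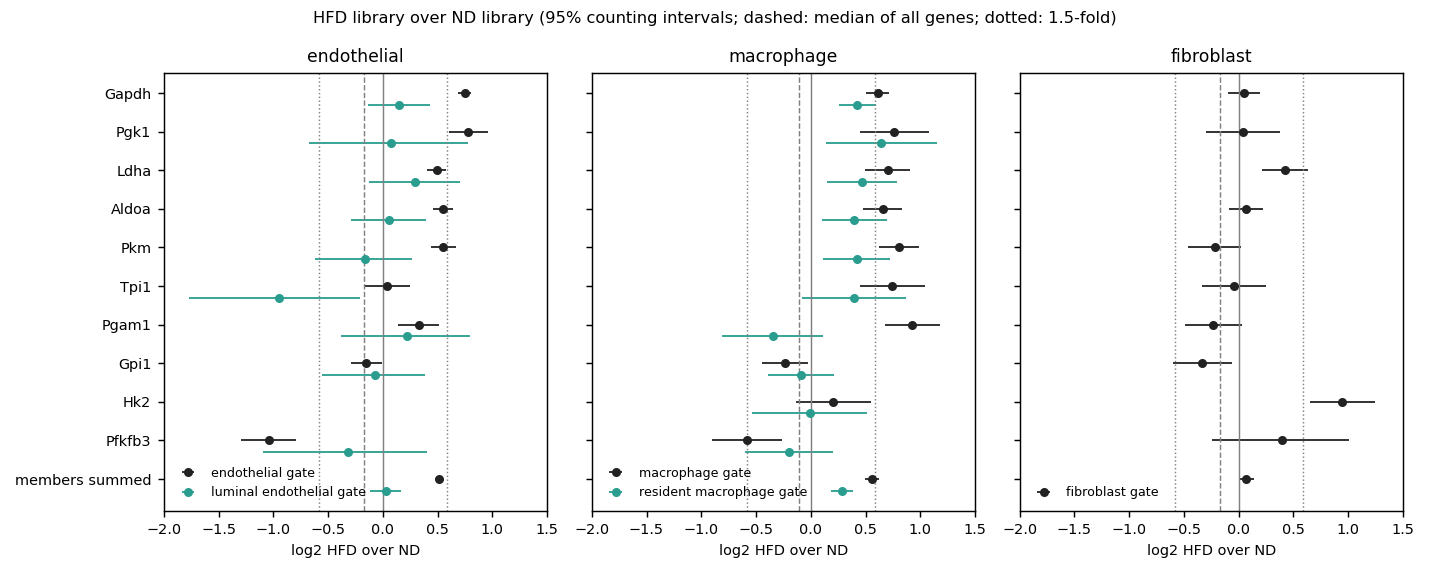
Log2 ratio of the HFD over the ND library for each member with at least 50 UMIs and for the sum, with 95% counting intervals, in the endothelial, macrophage and fibroblast gates (black) and in the luminal endothelial and resident macrophage sub-gates (green). The solid line is 0, the dashed line the median of all genes in the gate, and dotted lines mark 1.5-fold. Gapdh lies at 0.75 in all endothelial cells and at 0.15 in luminal cells, and Pfkfb3 at -1.04 in all endothelial cells.

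The macrophage gates held different kinds of cells in each library. Foam-type cells, with markers Trem2, Gpnmb, Spp1 and Cd9 of lipid-laden macrophages, numbered 18 in ND and 171 in HFD, and resident cells, with Lyve1, Folr2, F13a1 and Cbr2, numbered 215 and 193. Among resident macrophages the sum was 1544 in ND and 1882 in HFD, a log2 ratio of 0.29 (0.19 to 0.38). Pgk1 was the 1 member past 1.5-fold (55.2 and 86.2, 1.56-fold, 1.10 to 2.22), where 3.9% of 4513 genes were as much higher, and 0 members were as much lower, where 12.3% of all genes were. Gapdh stood at 499 and 671 (log2 0.43, 0.26 to 0.60) and Pgam1 at 89.8 and 70.5 (log2 -0.35, -0.81 to 0.11).

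Within the HFD library, foam-type cells had higher levels of several lower-pathway enzymes than resident cells, while Eno1, the enolase between Pgam1 and Pkm, was at 107 CPM in resident and 85.1 in foam-type cells (log2 -0.33, -0.70 to 0.05). Pgam1 stood at 70.5 CPM in resident and 312 in foam-type cells (4.43-fold, 3.45 to 5.75), Pkm at 210 and 459 (2.19-fold, 1.88 to 2.56) and Aldoa at 222 and 419 (1.88-fold, 1.62 to 2.20). Tpi1 (88.1 and 146) and Gapdh (671 and 1069) also passed 1.5-fold, so 5 of 10 members were higher, beside 19.6% of 5094 genes. Pfkfb3 was lower, at 98.9 and 36.9 (0.373-fold, 0.266 to 0.520), beside 21.8% of all genes. Gpi1 was at 179 and 142 and Hk2 at 62.7 and 82.0. The summed level was 1882 in resident and 3078 in foam-type cells, and the 18 ND foam-type cells stood at 2826 (2555 to 3118). Median depth was 8357 UMIs in HFD foam-type and 5132 in HFD resident cells, with 16.6% and 23.6% mitochondrial UMIs and 5108 and 12252 CPM of dissociation-response genes, and the part of these in the difference was not tested.

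**Figure D4:**
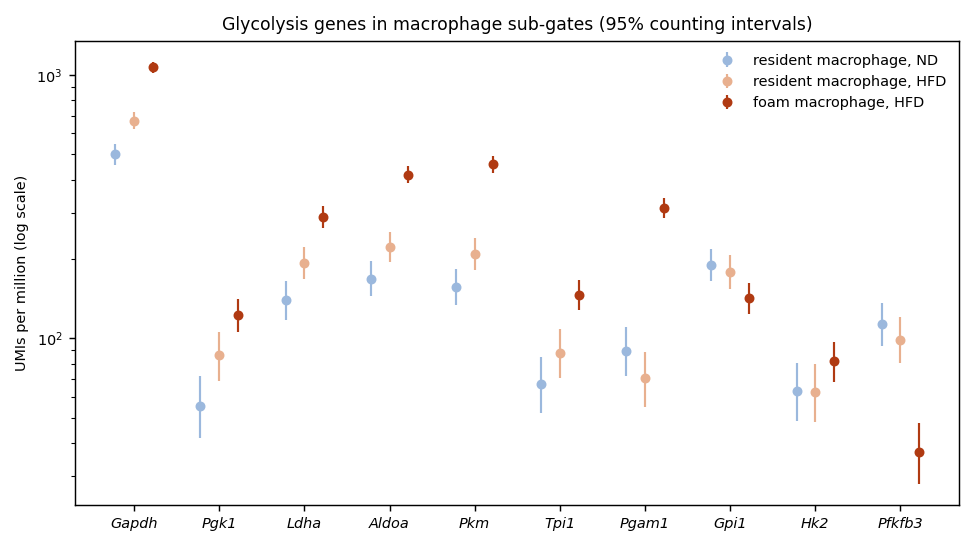
Level of each member in resident macrophages of the ND and HFD libraries and in foam-type macrophages of the HFD library, in CPM on a log axis with 95% counting intervals. Pgam1 is at 70.5 in HFD resident and 312 in HFD foam-type cells, and Pfkfb3 at 98.9 and 36.9.

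Cycling cells, with at least 3 proliferation markers whatever their gate, numbered 82 in ND and 64 in HFD. Their members summed to 2213 and 2828 CPM, above the 1564 and 2038 over all kept cells. Their median depth was 10703 and 8444.5 UMIs, against 3732.5 and 5336 over all kept cells. The median mitochondrial share was 8.89% and 16.6%, against 16.8% and 21.9%. The part of these and of the mix of cell types in the difference was not tested. Gapdh stood at 929 and 1221 in them, and the HFD over ND ratios of the members ran from 0.810 for Gpi1 to 1.48 for Pkm.

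The rest of the pathway was read from lists that also hold genes of the neighbouring routes. Of 24 other glycolysis enzymes, 9 passed 50 UMIs in endothelial cells, with a median log2 ratio of 0.05. Of these, 2 were past 1.5-fold higher and 1 lower, beside 4.6% and 17.3% of all genes. The higher genes were Bpgm and Tigar, which lowers fructose 2,6-bisphosphate and is named here after its value was seen. Bpgm, which makes 2,3-bisphosphoglycerate and is abundant in red cells, stood at 17.8 CPM in ND and 60.4 in HFD (log2 1.77, 1.51 to 2.03), beside the haemoglobin shares given above. Pfkm, the muscle phosphofructokinase, stood at 9.74 and 4.94. Of 6 such enzymes in macrophages none was higher and Hk1 was lower (31.5 and 16.6), beside 9.19% and 17.3% of all genes. Of 6 in fibroblasts none was higher and Pfkm was lower, beside 4.62% and 15.4%. The enolase step, which stands between Pgam1 and Pkm, was counted as Eno1, which has near-identical copies that can share its reads. Eno1 stood at 35.9 CPM in ND and 33.4 in HFD endothelial cells (log2 -0.11, -0.36 to 0.14), 95.1 and 105 in macrophages (0.14, -0.14 to 0.42) and 32.1 and 32.4 in fibroblasts (0.02, -0.47 to 0.48), so its intervals span 0 in all 3 gates.

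The carriers of glucose and lactate were parted by cell type. Slc2a1, the glucose carrier of most tissues, held 76.2% of ND endothelial glucose carrier UMIs (Slc2a1, Slc2a3, Slc2a4 and Slc2a6, of which Slc2a4 and Slc2a6 held under 200 UMIs over all kept cells and are named after their values were seen). Slc2a4, the insulin-responsive carrier, held 48 of 49 in ND adipocyte-gated cells, and Slc2a3 held 62.1% in ND neutrophils. Slc16a3, a lactate exporter, held 213 of 215 monocarboxylate carrier UMIs (Slc16a1, Slc16a3 and Slc16a7) in ND neutrophils. In endothelial cells it stood at 2.13 CPM in ND and 8.19 in HFD (21 and 53 UMIs, log2 1.94, 1.19 to 2.75). Slc16a3 was the 1 gene of 6 past 1.5-fold higher and Slc2a8 the 1 lower, beside 4.6% and 17.3% of all genes. In fibroblasts Slc16a1 was higher (20.7 and 40.2) and Slc2a1 lower (13.6 and 3.35), of 4 genes, beside 4.62% and 15.4% of all genes.

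Of 15 other HIF genes counted in endothelial cells, 2 were past 1.5-fold higher (Ankrd37 and P4ha2) and 3 lower, beside 4.6% and 17.3% of all genes. Adm, a vasodilator peptide, stood at 94.8 and 35.5 CPM, Ddit4, a brake on mTOR, at 237 and 151, and P4ha1, a collagen prolyl hydroxylase, at 64.1 and 35.1. In macrophages 3 of 12 were higher and 3 lower, beside 9.19% and 17.3% of all genes. The higher genes were Vegfa at 10.7 and 37.6, Epas1 (HIF-2α) at 10.1 and 42.5, and Ndrg1, by 4.41-fold. In fibroblasts 2 of 13 were higher, Bnip3 (20.7 and 46.4) and Adm (188 and 564), beside 4.62% of all genes. Higd1a was the 1 lower (103 and 65.4), beside 15.4%. The medians were -0.05, 0.15 and 0.07 in endothelial cells, macrophages and fibroblasts. In foam-type against resident HFD macrophages 4 of 8 HIF genes were higher and 0 lower, beside 19.6% and 21.8% of all genes. The list median was 0.77, beside the members' 0.62. Vegfa stood at 4.90 in resident and 52.6 in foam-type cells, and Epas1 at 13.7 and 75.1.

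All 23 genes of pyruvate entry and the tricarboxylic acid cycle had at least 50 UMIs in each of these gates. 1 of them was past 1.5-fold higher in endothelial cells (Idh3a, a subunit of NAD-dependent isocitrate dehydrogenase, at 19.7 and 38.6), beside 4.6% of all genes. In macrophages 2 were (Idh3a again and Mpc1, a subunit of the mitochondrial pyruvate carrier, at 88.8 and 157), beside 9.19%. Both counts were near the share of all genes. None was lower in these gates, beside 17.3% in each. In fibroblasts none was higher, beside 4.62%, and Mpc1 was lower (96.8 and 59.3), beside 15.4%. The list medians were 0.10, 0.10 and -0.16. In foam-type against resident HFD macrophages 8 of 22 were higher and 1 was lower, beside 19.6% and 21.8% of all genes. Mpc1 was among the higher genes, at 55.8 in resident and 243 in foam-type cells.

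Of the pentose phosphate, serine and glycerol branches, 2 of 11 genes were higher in HFD endothelial cells and 2 lower. The shares of all genes were 4.6% and 17.3%, so the number of lower genes was near its share. The higher genes were Gpd1 (10.0 and 21.2) and Gpd2 (27.7 and 51.3), which make and use glycerol 3-phosphate, the side branch of glycolysis, beside the adipocyte markers given above. In macrophages 1 of 8 was higher, Taldo1 of the pentose phosphate route (140 and 245), beside 9.19% of all genes. In fibroblasts 1 of 11 was, G6pdx, the first enzyme of that route (27.8 and 44.2), beside 4.62%. None was lower in these gates, beside 17.3% and 15.4%. Of 5 genes, Pgls, Pgd, Tkt and Taldo1 were at least 1.5-fold higher in foam-type than in resident HFD macrophages, beside 19.6% of all genes. Taldo1 stood at 101 in resident and 350 in foam-type cells.

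**Figure D5:**
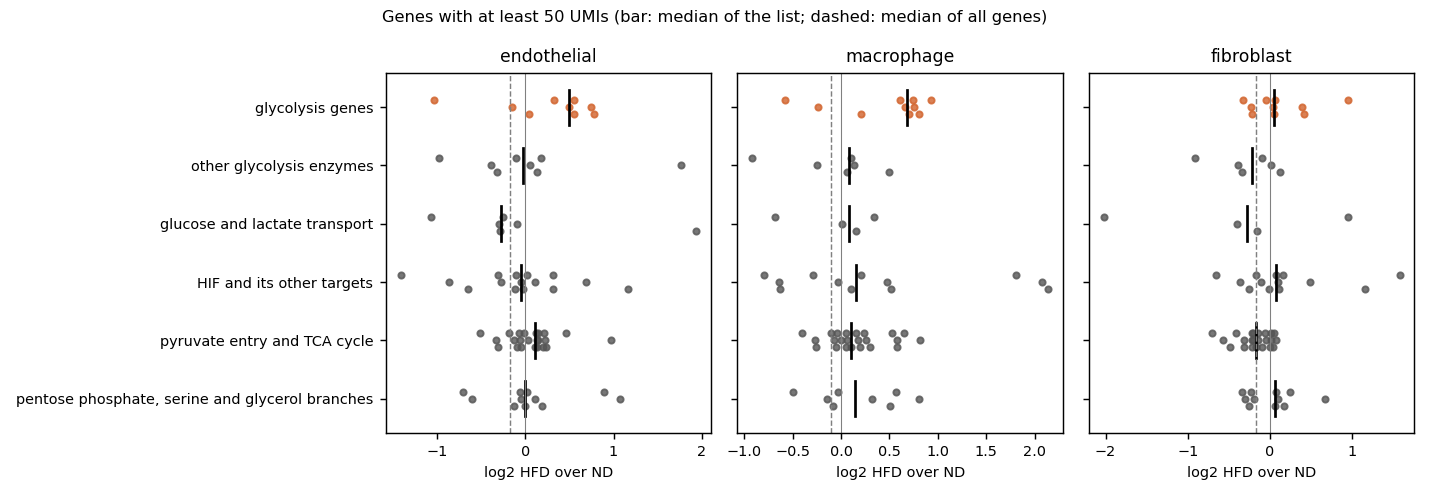
Log2 ratio of the HFD over the ND library for the members (orange) and the genes of 5 neighbouring lists that hold at least 200 UMIs over all kept cells (grey), each with at least 50 UMIs in the gate, in 3 gates, each on its own horizontal range. The bar is the median of the plotted genes of a list, which can differ from the list median in the text. The dashed line is the median of all genes in the gate. The members' median is 0.49 in endothelial cells and 0.68 in macrophages, and 0.05 in fibroblasts.

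Over the 6 points given by 3 gates in 2 libraries, the genes whose log2 level (10 added to the CPM) followed the members' sum most closely were Timm10b (Pearson r = 0.981), Lrrc59 (0.978), Shisa5 (0.960), Lipa (0.953) and Nmt1 (0.944), of 3318 genes compared. The points share their libraries and, within a library, its depth. Timm10b, a chaperone of the mitochondrial intermembrane space, stood at 63.1 in ND and 118 in HFD endothelial cells, 104 and 162 in macrophages and 75.2 and 80.5 in fibroblasts. Lipa, the lysosomal acid lipase, stood at 67.0 and 122, 155 and 360, and 44.3 and 38.6 in the same order.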

How the data were processed

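The authors made the UMI counts with Cell Ranger on mm10, per the labels (software version 3.0.1 in the matrix headers). The deposited counts are whole and not normalized, and hold more barcodes than the study analysed. Which gene annotation lies behind them is not given in sources used here. The submitters' notes also name Seurat 3.2.0 and R 4.0.0, whose output was not used, and the joined table of both libraries was not used here.

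The members, gene lists, gates and settings were chosen with earlier results of these data known. Kept cells had 200 or more UMIs, 200 or more genes and a mitochondrial share of no more than 30%. Kept cells hold 27137322 ND and 17191279 HFD UMIs. A gate needed 3 markers of 1 list, a sub-gate 2 and fewer than 2 of its partner, and no cell was removed as a doublet, but the 6% of cells with the highest Scrublet score (scanpy 1.11.5) were left out as an alternative. The UMIs of a gate gave each gene's CPM. All 95% intervals are exact, by the Poisson distribution for levels, by Clopper-Pearson for shares and by the conditional binomial distribution for ratios. Genes with at least 50 UMIs over both libraries were compared, and a gene was called past the fold at 1.5-fold, with no test, since each diet has 1 library. Named were all 10 members, genes of the neighbouring lists with at least 200 UMIs over all kept cells, with Tigar, Slc2a4 and Slc2a6 as exceptions, and the 5 genes most like the members' sum among those with at least 2000 UMIs. The interval code was run on simulated Poisson counts without spread between cells or mice, which checks the code and not that spread. Promoter letters were searched in RefSeq windows of GRCm38.p6. Calculations used Python 3.11.15, numpy 2.4.6 and scipy 1.17.1.

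Reads of Gapdh pseudogenes and of Eno1 copies may be lost or shared, and isoforms of Pkm cannot be told apart at the 3′ end.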

Additional observations from a re-analysis of the deposited data

How the results depend on the processing

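No member past 1.5-fold changed its direction under the 10 alternatives run in endothelial cells, macrophages and fibroblasts. Of 300 values of single members under these, 255 lay inside the interval of the reported value and 286 had its sign. The log2 ratio of the members' sum in endothelial cells (0.51) became 0.57 in cells with 15% to 30% mitochondrial UMIs, 0.64 without mitochondrial, haemoglobin and ribosomal genes, 0.67 under the median of ratios and 0.67 without cells with a haemoglobin UMI. In macrophages (0.56) it became 0.68 at most 20% mitochondrial UMIs, 0.74 at 15% to 30%, 0.72 under the median of ratios and 0.47 without cells with a haemoglobin UMI. In fibroblasts (0.07) it became 0.24, 0.16, 0.26 without those gene classes and 0.21 under the median of ratios. Macrophages over endothelial cells in ND (0.44) became 0.50 at most 20% and 0.14 at 15% to 30% mitochondrial UMIs, 0.54 with gates of 2 markers, 0.54 under the median of ratios and 0.27 when each cell weighed the same. In HFD (0.49) the same settings gave 0.64, 0.31, 0.53, 0.58 and 0.34, gates of 2 markers after thinning gave 0.42, and cells without a haemoglobin UMI gave 0.23. The 2 members past 1.5-fold higher in endothelial cells became 4 at 15% to 30% mitochondrial UMIs, with gates of 2 markers and without haemoglobin UMIs, 5 under both other scalings and 0 at 2-fold. The 7 in macrophages became 4 with gates of 2 markers, 2 of 10 without haemoglobin UMIs (25 HFD cells) and 0 at 2-fold. The 0 lower members in macrophages became 1, Pfkfb3, at most 20% mitochondrial UMIs, with gates of 2 markers with or without thinning, without the highest doublet scores and without cells with haemoglobin or adipocyte marker UMIs. The 1 in fibroblasts became 3 at most 20% mitochondrial UMIs and 0 at 2-fold. The count became 2 with gates of 2 markers and 2 without those gene classes. Without haemoglobin UMIs 1 was lower. Without those gene classes 6.97% of all genes were as much higher in endothelial cells and 7.97% in fibroblasts. Under the median of ratios the endothelial share was 7.65%. For settings that change the cells or the fold, the share of all genes was not counted. Those counts cannot be set against a share. The settings on haemoglobin and adipocyte marker UMIs were chosen after seeing the data, and the cause of these moves was not tested. Depth limits Hk2 in endothelial cells, with 46 UMIs in all.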

Other observations

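A selected part of the barcodes that the filter removed, which still reached 3 markers of 1 list, was summed in the same way. These barcodes passed the limits on UMIs and genes. Their mitochondrial share lay above the limit of the filter and no higher than a second limit. Other removed barcodes were left out, so the levels below do not describe all removed barcodes. Among 606 ND and 2110 HFD such endothelial barcodes, Gapdh stood at 271 and 562 CPM, Aldoa at 122 and 245 and Pfkfb3 at 49.1 and 18.5. The sum was 965 and 1497, a log2 ratio of 0.63 (0.54 to 0.73). In 115 ND and 255 HFD fibroblast barcodes the sum was 783 and 1015, a log2 ratio of 0.37 (0.11 to 0.65). In 54 and 285 macrophage barcodes it was 1227 and 1491, a log2 ratio of 0.28 (0.06 to 0.51). Kept cells had 0.51 in endothelial cells, 0.07 in fibroblasts and 0.56 in macrophages. Hk2 had 3 and 16 UMIs in the endothelial barcodes.

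Mixed cells, with 3 markers of more than 1 list, had summed levels of 1670 in ND and 2072 in HFD, and the 8 adipocyte-gated HFD cells, too few to be shown above, had 6478 (5981 to 7006) with Aldoa at 2004 and Hk2 at 248. Ucp1 stood at 3079 CPM in these 8 cells and at 146 in the 20 ND cells.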
